A study of Homo sapiens with 6 samples.

Results

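MicroRNA genes and the genes that host them were described in 1 merged transcript assembly made from 6 RNA-seq libraries of the human beta cell line EndoC-βH1, which was derived from pancreas. In the INS-shRNA group (3 libraries), virally transduced cells received doxycycline at 1 mg/mL for 7 days to induce a short hairpin RNA aimed at the promoter of the insulin gene INS. The negative control group (3 libraries) received no doxycycline, so the induced hairpin and the drug cannot be told apart. The shRNA was delivered by lentivirus into the cell line, and every library was made from 10 ng of total RNA. The members were chosen by name, length and place: models on chromosomes 1 to 22 and X whose gene name begins with MIR and a digit, or with MIRLET7, and whose exons together measure under 200 bases. The rule found 1653 of the 55083 models in the assembly, under 1596 gene names. It used no measured value.

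The assembly holds exon positions and names for all libraries together and no abundance for any of them. No difference between the induced and the control libraries, no level of a microRNA and no check of the beta cell label against its marker genes could therefore be computed, and no test was made. All 1653 members matched their annotated transcript, and 0 were joined models, the class of models that share at least 1 splice junction with a RefSeq transcript but not its whole chain of introns. An original name given by Cufflinks was borne by 11 of them, of which 9 had the exons and strand of a RefSeq member and 2 the exons alone, on the other strand. A member in the file is thus in nearly every case an annotation carried into the assembly and no sign that the microRNA was made in these cells. The positions below describe how the RefSeq genes of this assembly are laid out around the microRNAs, and of the models described the joined models of the host genes and the 11 members with a Cufflinks name could have come from the libraries. Intervals given with shares are exact Clopper-Pearson 95% intervals. They cover counting error only, and clustered microRNAs are not independent of each other.

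A microRNA is a short single-stranded RNA that pairs with messenger RNAs, mostly through its seed (bases 2 to 8), and lowers their translation or stability. It is cut from a hairpin in a longer primary transcript by the nuclear enzyme Drosha and then by Dicer. The hairpin may lie in an intron or exon of another gene, its host, and share that gene's transcription, or it may have a transcription unit of its own. A mirtron is a hairpin that is itself a whole short intron, so that splicing replaces the cut by Drosha. In beta cells miR-375 is known to restrain insulin secretion, and miR-7, miR-200, miR-204 and the miR-29 family are also well studied.

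The first set of sequences shows hairpins that fill a whole intron, read from the hg19 genome on the gene's strand. The capitals mark the first and last bases of the intron, which are GT and AG in each. MIR877 lies at chr6:30552109-30552194 (plus strand), MIR1224 at chr3:183959193-183959277 (plus), MIR1226 at chr3:47891045-47891119 (plus), MIR1229 at chr5:179225278-179225346 (minus), MIR6831 at chr5:139943256-139943336 (minus) and MIR7108 at chr19:2434912-2434998 (minus).
MIR877 in ABCF1: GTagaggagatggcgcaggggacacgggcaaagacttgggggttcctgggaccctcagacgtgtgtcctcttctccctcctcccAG
MIR1224 in VWA5B2: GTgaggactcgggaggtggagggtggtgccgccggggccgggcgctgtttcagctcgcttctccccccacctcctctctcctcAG
MIR1226 in DHX30: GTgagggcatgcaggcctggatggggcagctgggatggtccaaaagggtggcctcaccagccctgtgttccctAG
MIR1229 in MGAT4B: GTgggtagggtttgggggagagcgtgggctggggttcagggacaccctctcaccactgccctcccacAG
MIR6831 in APBB3: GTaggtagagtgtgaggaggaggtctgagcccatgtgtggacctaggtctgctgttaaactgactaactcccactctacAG
MIR7108 in LMNB2: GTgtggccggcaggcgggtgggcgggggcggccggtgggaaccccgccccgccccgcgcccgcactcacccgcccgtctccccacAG

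The mature 3p arms of 4 of these hairpins end on the AG of the intron. They are given with the seed in capitals, as RefSeq lists them (GRCh38.p14).
miR-877-3p: uCCUCUUCucccuccucccag
miR-1224-3p: cCCCACCUccucucuccucag
miR-1226-3p: uCACCAGCccuguguucccuag
miR-1229-3p: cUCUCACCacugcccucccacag

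A further set shows mature microRNAs, seeds again in capitals and again from RefSeq, whose genes lie in introns of paralogous hosts, that is, of genes that arose from a common ancestor. The host is named beside each.
miR-33a-5p (SREBF2): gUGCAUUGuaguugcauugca
miR-33b-5p (SREBF1): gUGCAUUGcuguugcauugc
miR-204-5p (TRPM3): uUCCCUUUgucauccuaugccu
miR-211-5p (TRPM1): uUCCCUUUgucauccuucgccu
miR-103a-3p (PANK3 and PANK2): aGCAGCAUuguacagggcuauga
miR-107 (PANK1): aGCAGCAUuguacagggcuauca
miR-26a-5p (CTDSPL and CTDSP2): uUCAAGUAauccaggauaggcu
miR-26b-5p (CTDSP1): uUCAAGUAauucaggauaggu
miR-148b-3p (COPZ1): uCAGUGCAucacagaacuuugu
miR-152-3p (COPZ2): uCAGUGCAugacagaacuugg
miR-208a-3p (MYH6): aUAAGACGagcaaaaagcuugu
miR-208b-3p (MYH7): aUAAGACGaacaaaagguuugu
miR-153-3p (PTPRN): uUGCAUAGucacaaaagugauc

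Most microRNA models lay inside other genes, and mostly on the strand of those genes. A same-strand intron held 755 of the 1653 (45.7%, interval 43.3 to 48.1%), and a same-strand exon was touched by 158 (9.56%, 8.18 to 11.1%). A further 205 (12.4%, 10.9 to 14.1%) lay in a gene on the other strand only, and 514 (31.1%, 28.9 to 33.4%) lay outside every gene of another name. The remaining 21 (1.27%, 0.788 to 1.94%) had several exons spread over a same-strand gene without fitting either of the first groups.

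Small nucleolar RNAs guide chemical changes of other RNAs, such as ribosomal RNA, and are another class of short RNA cut from introns. Models with names in SNORD, SNORA or SCARNA gave a scale for these shares. Of 389 such models under 400 bases, 67.1% (62.2 to 71.7%) lay in a same-strand intron, 5.40% (3.37 to 8.13%) touched a same-strand exon and 27.2% (22.9 to 32.0%) were intergenic. In the genome as a whole, taking each base on either strand, 21.3% was intronic, 1.31% exonic, 21.8% antisense and 55.6% intergenic. These are shares of single bases, whereas a model was exonic if any base touched an exon. The exonic shares are therefore not like for like. The intronic share of microRNAs thus stood above that of genome bases and below that of small nucleolar RNAs, and its interval did not overlap theirs. Among models inside a gene, 81.7% of 1118 microRNAs (79.3 to 83.9%), 99.6% of 283 small nucleolar RNAs (98.0 to 100.0%) and 50.9% of genome bases had the strand of the gene. Antisense position was common for microRNAs and held for 1 small nucleolar RNA.

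**Figure D1:**
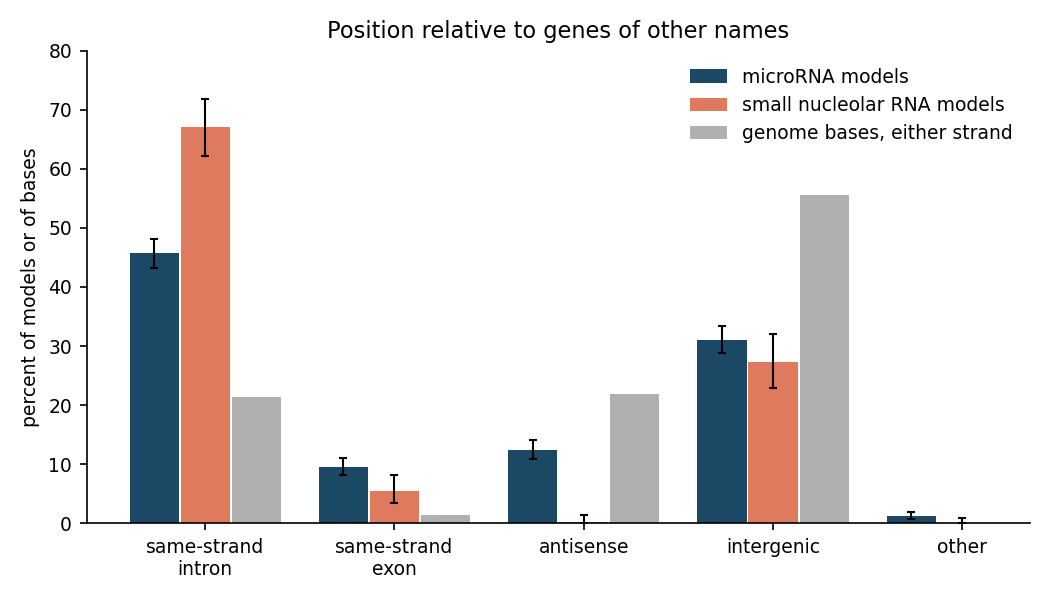
Percent of microRNA models (dark blue), small nucleolar RNA models (orange) and genome bases on either strand (grey) in each position relative to genes of other names. Lines are exact 95% intervals for counting error. MicroRNA models stood at 45.7% in same-strand introns, against 67.1% and 21.3%, and at 12.4% antisense, against 0.257% and 21.8%.

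MicroRNA models were unevenly spread over chromosomes. Chromosome 19 held 136, or 2.30 per Mb, and chromosome 17 held 103, or 1.27 per Mb. Chromosome 4 had the lowest density, 0.246 per Mb with 47 models. The models measured 20 to 180 spliced bases, with a median of 80. Of the 1653, 1602 had 1 exon. The name rule also matched 40 models of 200 bases or more on these chromosomes, the shortest of 425 bases, such as the long host transcript MIR17HG. These were left out as members and could serve as hosts. No matching model lay between 180 and 425 bases.

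Intronic microRNAs lay mostly in protein-coding genes. Of the 755, 754 had a host that was not itself a short microRNA model, and 684 of these had a coding host, while 70 had hosts of noncoding type alone. The 754 occupied 700 distinct introns with a median length of 4985.5 bases (quartiles 770 and 34868.5), against 1690 bases (quartiles 557 and 4779) for all 218262 reference introns. Where a model lay in introns of several transcripts, the shortest was used. Long introns hold more bases in which a gene can lie: the intron length at the middle of all intronic bases was 32874. Host introns were therefore long among introns and short among intronic bases.

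Both ends of the length range were filled. Introns under 200 bases made up 13% of host introns (91 of 700) and 11.3% of all introns, but held 0.196% of intronic bases. Introns of 100 kb or more made up 11.6% of host introns (81), 0.931% of all introns and 24.5% of intronic bases. The longest host intron, the first of CADM2, a cell adhesion gene, measured 766852 bases and held MIR5688 with 340729 bases to its nearer splice site. Other very long hosts were SGCZ with MIR383 (682658 bases), FGF14 with MIR2681 and MIR4705 (526174) and SCHIP1 with MIR3919 (490559). All 4 of these introns were the first of the transcript. First introns held 186 of the 754 models (24.7%, 21.6 to 27.9%), against 14.4% of introns and 30.8% of intronic bases.

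**Figure D2:**
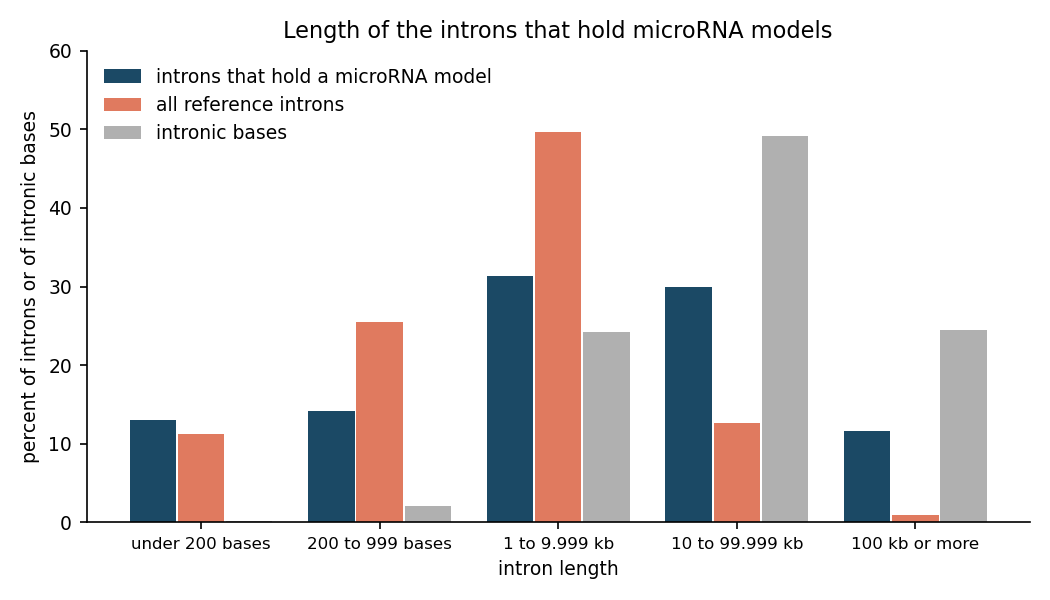
Percent of the 700 introns that hold a microRNA model (dark blue), of all reference introns (orange) and of intronic bases (grey) by intron length. Introns under 200 bases make up 13% of host introns and 0.196% of intronic bases, and introns of 100 kb or more 11.6% of host introns and 0.931% of all introns.

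A large part of the intronic models lay at the very edge of the intron. The median distance to the nearer splice site was 750 bases, yet 253 of 754 (33.6%) lay within 100 bases of one, against 2.65% of the positions an 80-base model could take in the reference introns. In introns of at least 1 kb it was 80 of 562 (14.2%), against 1.89% of positions. Both shares of positions are pooled over introns, so the longest introns weigh most in them. Positions in introns of the same lengths as the host introns were not compared, so the part of intron length in the closeness was not tested. The 3′ splice site was nearer for 419 models, the 5′ splice site for 310 and neither for 25. At the other extreme, 163 models lay over 10 kb from both.

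Most of these 253 were flush with an intron end. An exact intron end was shared by 217 models, 210 of them classed intronic and 7 exonic. The 3′ end of the intron, with its AG, was the last base of 210 models, and the 5′ end, with its GT, was the first base of 31. The 3′ end alone was shared by 186, the 5′ end alone by 7 and both by 24. MIR6726 in ACAP3, MIR6727 in CPSF3L, MIR6808 in DVL1, MIR6728 in ENO1 and MIR6859-1 in WASH7P are examples that end on the last base of introns of 86 to 615 bases. The introns with a model at their 3′ end had a median of 292 bases and ranged over 69 to 22710 bases, and 82 were under 200 bases. WASH7P has near-identical copies elsewhere in the genome, so its model may not be tied to 1 place.

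In the flush models the annotated hairpin usually stopped where the mature RNA stops. Of 184 models at a 3′ intron end that contained a 3p mature sequence, 145 (78.8%) ended with its last base, against 32 of 615 (5.20%) among the other models. At 5′ intron ends, 16 of 24 models with a 5p mature sequence began with its first base, against 30 of 781 elsewhere. Matching was exact, letter by letter. The last 22 bases of the flush models were 72.7% C or T at the median (210 models), against 50% in the other intronic models (547) and 50% in models outside introns (838). The same stretch of all 218234 reference introns long enough had a median of 68.2%. It is the pyrimidine-rich tract before the splice site, and the 3p sequences printed above show it.

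Whole introns were rarer. Within 5 bases at each end, 29 models shared both ends with 1 intron, 24 of them exactly. All 29 introns were GT-AG, and the models measured 69 to 115 bases with a median of 85. The 23 exact ones that lie off chromosome 8 had a median G and C content of 69.3% (51.9% in MIR6831 to 83.9% in MIR7108), against 52.6% in single-exon members. All 14 mirtrons on the list of known cases were intronic. They were listed as hairpins known to be whole short introns, so their position follows largely from that choice. Of these, 13 filled their intron base for base: MIR877, MIR1224, MIR1225, MIR1226, MIR1227, MIR1228, MIR1229, MIR1231, MIR1233-1, MIR1234, MIR1236, MIR1237 and MIR1238. The exception was MIR3064 in DDX5, an RNA helicase gene, which took up 66 bases at the 3′ end of an intron of 1236 bases. The other 11 exact cases were MIR1233-2, MIR3620, MIR3621, MIR6765, MIR6807, MIR6821, MIR6831, MIR6834, MIR6891, MIR6892 and MIR7108. MIR1233-1 in GOLGA8B and MIR1233-2 in GOLGA8A have the same 82 bases, and the hosts are close copies of each other.

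The number in a microRNA's name follows the order in which names were given, and the lowest and highest numbers differed in position. This division was chosen after the values were seen. Names numbered 6000 or more (323 models) lay in same-strand introns in 67.2% of cases (61.8 to 72.3%), and 179 of them (55.4%) shared an exact intron end. Names numbered below 500 (300 models), let-7 names among them, lay in introns in 35.7% (30.2 to 41.4%), and 0 shared an intron end. Clusters ran the other way, with 6.19% of the models in the highest range and 54.7% in the lowest. Neither the intronic share nor that of intron ends changed steadily between these ranges. From 500 to below 6000 the intronic share was 36.8%, 50%, 45.8%, 41.3% and 39.7% in successive ranges. The share with an exact intron end was 0.714%, 11.6%, 1.40%, 5.41% and 1.37% in the same ranges, and the share in clusters 37.9%, 13.4%, 16.4%, 5.13% and 4.11%. The 11.6% belongs to 112 models numbered from 1000 to below 2000, where most listed mirtrons are named.

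**Figure D3:**
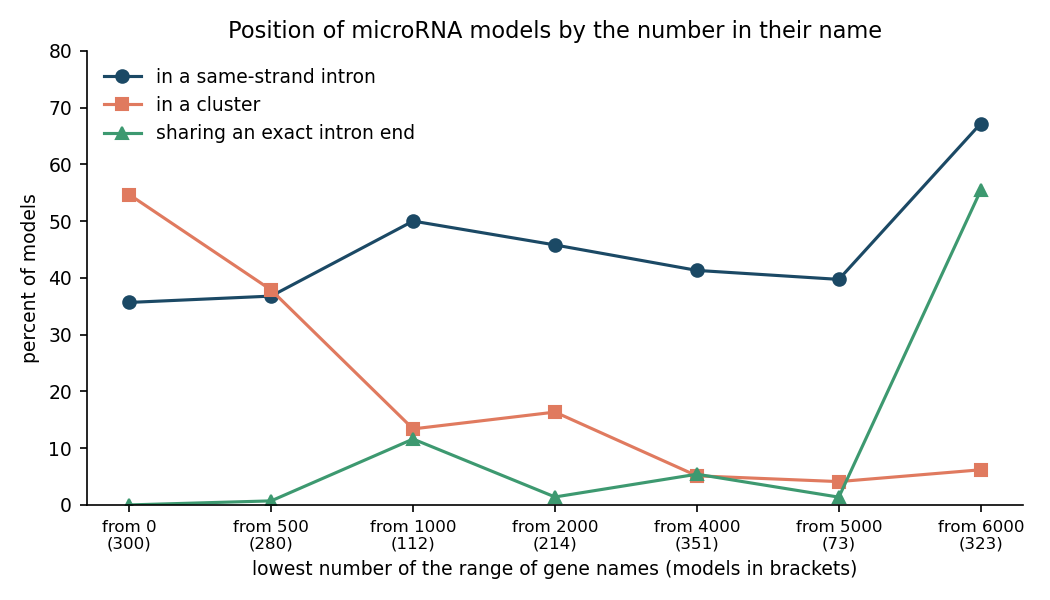
Percent of microRNA models in a same-strand intron (circles), in a cluster (squares) and sharing an exact intron end (triangles), by the number in the gene name, with the number of models in brackets. Intron ends were shared by 55.4% of models numbered 6000 or more and by 0 of those below 500, while clustering was 6.19% and 54.7% in the same ranges. The ranges between show no steady change in the intronic share.

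Exonic microRNAs were mixed in kind. Of the 158, 146 overlapped an exon of a gene that is not a short microRNA model, 117 of them in a coding gene and 29 in noncoding genes alone. In GENCODE, an annotation on the same build, 69 of the 117 overlapped protein-coding sequence. Of the others, 22 overlapped a 5′ untranslated region, 24 a 3′ untranslated region and 2 neither. The model lay wholly inside the exon in 71 cases and crossed an exon end in 75. In 28 of the 146 another transcript had the same bases in an intron. MIR17, MIR18A, MIR19A, MIR20A, MIR19B1 and MIR92A1, the miR-17-92 cluster known for driving cell growth, were of this kind: 1 transcript of MIR17HG had them in an exon and the other in an intron.

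Locus identifiers went with exonic position. All 158 exonic members carried the locus identifier of another gene, 146 of them that of a gene that is not a short microRNA model, and 0 of the 755 intronic members did. Among antisense, intergenic and remaining members it was also 0. So complete a split describes how the assembly groups models into loci, by the same shared exon bases as the class rule. It is not a result about the microRNAs. A value summed per locus in this assembly would add the exonic microRNA to its host and leave the intronic one apart. A start site group was shared by 36 members, 25 of them with such a gene. MIR483, in an intron of the growth factor gene IGF2 and of INS-IGF2, therefore had a locus of its own. Yet all 5 IGF2 transcripts and 1 of 2 INS-IGF2 transcripts span it.

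Antisense microRNAs came in part from paired microRNA genes. In 32 of the 205 the only gene on the other strand was another microRNA. In all, 80 members overlapped a microRNA of another name on the other strand, as MIR7-2 did with MIR3529, MIR338 with MIR3065, MIR122 with MIR3591 and MIR451A with MIR451B. MIR7-2, 1 of 3 genes for miR-7, and MIR122, the main microRNA of liver, were antisense by this alone. If strand is not recorded in the libraries, reads over such a pair could not be assigned to one of them.

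Same-strand models within 10 kb of each other formed 100 clusters, with 361 models in all (21.8%, 19.9 to 23.9%). Pairs made up 66 of them, 23 had 3 to 5 models and 11 had 6 or more. In 7 of the pairs both models bore the same name and overlapped, so that 93 clusters, 59 of them pairs, held microRNAs of different names. Clustered models were intergenic in 51.5% and intronic in 26.9%, against 25.4% and 50.9% of the 1292 lone models. The cluster with the most, MIR512-2 to MIR519A2 on chromosome 19, known for activity in the placenta of primates, held 48 models under 45 names in 95758 bases, all intergenic. MIR379 to MIR656 on chromosome 14, in an imprinted region, held 41 models in 44736 bases, of which 36 were intergenic and 5 lay in introns of MIR381HG.

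The next clusters were smaller and differed in position. MIR493 to MIR136, also on chromosome 14, had 13 models under 8 names, 10 of them antisense to RTL1, an imprinted retrotransposon-derived gene. MIR941-1 to MIR941-4 on chromosome 20 had 8 models in 536 bases, which overlapped each other and were classed exonic through these overlaps. MIR532 to MIR502 on chromosome X had 8 models in 11538 bases, all in introns of CLCN5, which encodes a chloride-proton exchanger. Several models of 1 name are copies of that gene in the assembly, so models count higher than genes here.

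**Figure D4:**
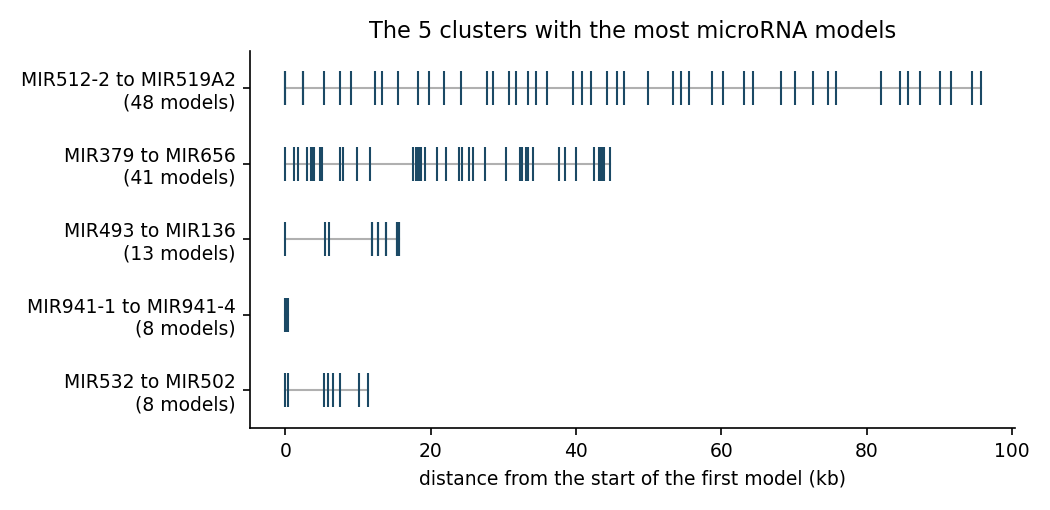
Position of each microRNA model (tick) in the 5 clusters with the most models, in kb from the start of the first model along the chromosome. The chromosome 19 cluster spreads 48 models over 95758 bases and the MIR941 cluster 8 models over 536 bases.

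The list of islet and beta cell microRNAs held 49 names, all in the assembly, of which 26 were intergenic, 19 intronic, 2 exonic and 2 antisense. Over all members the order was the other way, with 45.7% intronic and 31.1% intergenic. All names on the list are numbered below 500, however. Among the 300 models so numbered the order was that of the list, with 41.3% intergenic and 35.7% intronic. It is therefore not particular to the islet list. MIR375 (chr2:219866367-219866430, minus strand) was intergenic, and so were MIR200A, MIR200B, MIR429, MIR200C and MIR141 of the miR-200 family, which keeps epithelial identity, and MIR96, MIR182 and MIR183. All 4 genes of the miR-29 family and MIR132 and MIR212, which share a seed, were intergenic in pairs. MIR21, MIR34A, which is induced by p53, and MIR146A, a brake on inflammatory signalling, were intergenic and in no cluster. MIR21 lay 675 bases from VMP1 on its strand, and MIR34A and MIR146A 22498 and 56608 bases from a gene. MIR29B1 and MIR29A lay 23 and 752 bases from LINC-PINT, also on their strand, and MIR29C and MIR29B2 6336 and 6927 bases from CD46. The class of the nearest ones depends on where RefSeq ends those genes.

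The intronic members of the islet list included a pair in genes of the secretory granule. MIR153-1 lay in intron 19 of 22 in PTPRN and MIR153-2 in intron 19 of 22 in PTPRN2, the genes of paired membrane proteins of insulin granules that are autoantigens in type 1 diabetes. Their introns measured 3451 and 5119 bases. Each host had 1 joined model. MIR204 lay in intron 7 of 25 in TRPM3, a cation channel gene, and MIR211 in intron 7 of 27 in TRPM1. TRPM3 had 2 joined models and TRPM1 had 1. MIR7-1 lay in the last of 16 introns of HNRNPK, which encodes an RNA-binding protein and had 1 joined model, and MIR7-3 in the noncoding MIR7-3HG, which had none. MIR30C1 and MIR30E shared intron 5 of NFYC, a subunit gene of a CCAAT-binding factor, which had 3 joined models. In all, 11 of the 21 hosts of the islet list had a joined model. Beside this, the share was 20.4% of all multi-exon hosts and 12.5% of all multi-exon gene names. The 11 had from 2 (INS-IGF2) to 9 (TRPM3) multi-exon reference transcripts, and among all hosts with 2 or more the share was 34.8%. The 21 include LOC284454, which has no multi-exon transcript.

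The exonic pair of this list was MIR24-2 in LOC284454 and MIR9-2 in LINC00461. Of 3 reference transcripts of LINC00461, 2 had MIR9-2 in an exon and 1 in an intron. Copies of 1 microRNA thus differed in position: MIR9-1 was intronic in C1orf61, MIR9-2 exonic and MIR9-3 intergenic. The 3 miR-9 genes have the same mature 5p sequence in RefSeq, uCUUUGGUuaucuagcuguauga. The 3 miR-7 genes were intronic in 2 cases and antisense in 1.

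Lists from other tissues were described beside it. The let-7 list, microRNAs known for restraining growth and stemness, had 5 of 12 intronic, 2 exonic, 2 antisense and 3 intergenic. MIR98 and MIRLET7F2 shared intron 60 of 83 in HUWE1, a ubiquitin ligase gene, and MIRLET7A3 and MIRLET7B an exon of MIRLET7BHG. In the muscle list 5 of 10 were intronic, 3 exonic and 2 intergenic. MIR133A2 and MIR1-1 had the same host, C20orf166, with the first in an exon and the second in an intron. The blood and liver list had 2 of 9 intronic, MIR126 in EGFL7 and MIR181A1 in MIR181A1HG, and 1 exonic, MIR155 in MIR155HG. It had 3 antisense and 3 intergenic members. A joined model was present at 1 of 5 hosts of the let-7 list, 1 of 6 of the muscle list and 0 of 3 of the blood and liver list, beside the same 12.5% of all multi-exon gene names. The list of known polycistronic clusters had 3 of 15 intronic, MIR106B, MIR93 and MIR25 in intron 12 of 13 of MCM7, a DNA helicase subunit gene, 6 exonic, in MIR17HG, and 6 intergenic, on chromosome X. Of its 2 hosts MCM7 had a joined model.

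The list drawn up for paralogous hosts had 25 microRNAs, all intronic, in 23 host genes. Without MIR15A, MIR16-1, MIR15B and MIR16-2, whose hosts DLEU2 and SMC4 are not known as relatives, it had 21 in 21 hosts. Of these hosts 8 had a joined model, beside 20.4% of all multi-exon hosts and 12.5% of all multi-exon gene names. MIR33A lay in intron 16 of 18 of SREBF2 and MIR33B in intron 17 of 19 of SREBF1, the genes of the factors that control cholesterol and fatty acid synthesis. MIR208A lay in intron 29 of 38 of MYH6 and MIR208B in intron 30 of 39 of MYH7, the heavy chains of cardiac myosin, while MIR499A lay in intron 22 of 44 of MYH7B. MIR103A1, MIR103A2 and MIR107 lay in intron 5 of 6, 5 of 6 and 4 of 5 of PANK3, PANK2 and PANK1, which make the first enzyme of coenzyme A synthesis. MIR26A1, MIR26A2 and MIR26B lay in intron 5 of 7, 5 of 7 and 4 of 6 of CTDSPL, CTDSP2 and CTDSP1, small phosphatases. MIR148B and MIR152 lay in the first of 8 introns of COPZ1 and COPZ2, coatomer subunits. MIR218-1 and MIR218-2 lay in intron 15 of 36 of SLIT2 and 14 of 35 of SLIT3, secreted guidance proteins. Counted from the last intron, the place was the same within each of these groups apart from MYH7B, and in PTPRN and PTPRN2. It differed between TRPM3 and TRPM1, where both microRNAs lay in intron 7 when counted from the first. It also differed between R3HDM1, with MIR128-1 in intron 15 of 22, and ARPP21, with MIR128-2 in intron 17 of 18.

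The introns themselves differed in length. The intron with MIR148B measured 15281 bases and that with MIR152 741 bases. The intron with MIR33A measured 2471 bases and that with MIR33B 475 bases, and MIR204 lay in 26890 bases against 2783 for MIR211. The 5p sequences of miR-204 and miR-211 were identical at 20 of 22 positions, those of miR-33a and miR-33b at 18 of 20, and the 3p sequences of miR-148b and miR-152 at 19 of 21. For miR-208a-3p and miR-208b-3p it was 19 of 22, and for miR-103a-3p and miR-107 22 of 23. MIR128-1 and MIR128-2 encode the same 3p sequence, MIR218-1 and MIR218-2 the same 5p sequence and MIR26A1 and MIR26A2 the same 5p sequence. MIR15A with MIR16-1 in DLEU2 and MIR15B with MIR16-2 in SMC4, a condensin subunit, carry the same miR-16-5p.

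Seeds crossed position classes. Mature sequences were found in RefSeq for 1453 of the 1596 gene names and gave 1704 distinct seeds, of which 305 were held by 2 or more gene names and 18 by 5 or more. The seed GAGGUAG of the let-7 family was held by 14 names on 10 chromosomes, 6 intronic, 3 exonic, 2 antisense and 3 intergenic. AAGUGCU was held by 11 names, 7 intergenic and 4 antisense, of the miR-302, miR-372, miR-373 and miR-520 groups, known from embryonic stem cells and placenta. UCUAGAG was held by 11 names that were all intergenic on chromosome 19. AGCAGCA of the miR-15 and miR-16 family was held by 8 names, 6 intronic and 2 exonic.

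The host genes numbered 800, of which 733 were coding and 67 noncoding. Intronic members had 675 host names and exonic members 137, and 70 hosts held more than 1 member. CLCN5 held 8, HTR2C, a serotonin receptor gene, and MIR17HG 6 each, and C9orf3, LOC101448202 and MIR381HG 5 each. C9orf3, which encodes an aminopeptidase, held MIR2278, MIR6081 and the neighbours MIR23B, MIR27B and MIR24-1, all in introns. FTX, a noncoding gene near the X inactivation centre, and MIRLET7BHG held 4 each. A further 12 hosts held 3 each, AATK and CDC20B being the first by name. The 791 hosts with a multi-exon reference transcript spanned a median of 48927 bases, against 23455 for 20545 other genes, and had a mean of 2.42 reference transcripts against 2.00.

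Joined models were found at 161 of the 791 multi-exon hosts (20.4%, 17.6 to 23.3%), against 12.5% of all 21352 multi-exon gene names and 12.2% (11.7 to 12.6%) of those that are no host. The number of annotated transcripts moved with this share. Among genes with 1 reference transcript it was 2.01% of hosts and 0.736% of other genes, and with 2 it was 12.3% (7.96 to 17.9%) and 5.78% (5.07 to 6.55%). With 3 it was 43.8% (34.4 to 53.4%) of hosts and 33.5% (31.5 to 35.5%) of others. With 4 or 5 it was 47.0% and 49.0%, and with 6 or more 70.5% and 65.6%. At a like number of transcripts the intervals overlapped, except for genes with 2. The part of gene length in the difference was not tested.

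**Figure D5:**
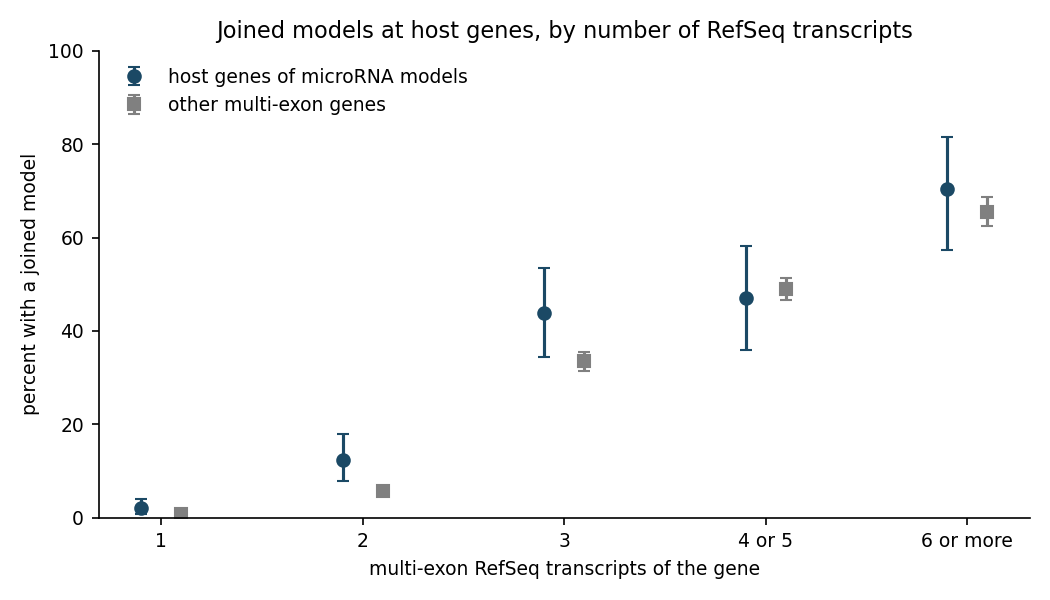
Percent of host genes of microRNA models (blue circles) and of other multi-exon genes (grey squares) with at least 1 joined model, by the number of multi-exon RefSeq transcripts of the gene. Lines are exact 95% intervals for counting error. Hosts and other genes stood at 12.3% and 5.78% with 2 transcripts and at 70.5% and 65.6% with 6 or more.

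The hosts with the most joined models were NDRG2 with 19, which holds MIR6717 in an exon, FOXP1 with 10, a transcription factor gene with MIR1284, ATF2 with 8, another with MIR933, and KIAA1217 and ST3GAL3 with 7 each, with MIR603 and MIR6079. They had 14, 9, 13, 6 and 25 reference transcripts. These hosts were named after their values were seen. Of the hosts in the lists, R3HDM1, with MIR128-1, had 4, and ANK1, the erythrocyte ankyrin gene with MIR486, had 3. Among the 14 hosts of the listed mirtrons, 1 had a joined model, GOLGA8B, a share near the 12.5% of all multi-exon gene names.

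Joined models kept the reference introns around intronic microRNAs. A joined model of the host spanned 159 intronic members, 290 models in all, and each of the 159 lay in an intron of every one of them. The class rule fixes this, since a member touching a same-strand exon of another gene, in joined models too, was classed exonic. Which intron it was is not fixed by the rule, and in 0 of the 159 was that intron absent from the reference. The share of such introns over all joined models of the assembly is not given here. The 0 can therefore not be read as a trait of the microRNA introns. Exonic members were spanned in 20 cases by 51 joined models, of which 39 had the microRNA in an exon. For MIR3917 in STMN1, MIR6501 in SON, MIR6872 in SEMA3B and MIR9-2 in LINC00461 no joined model had it in an exon. The 2 joined models over MIR9-2 and the 3 over MIR6872 skipped it, whereas all 19 over MIR6717 in NDRG2 kept it. Which of these transcripts was made in which library was not analysed here.

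Intergenic microRNAs lay at a median of 19154.5 bases from the nearest gene. Of the 514, 159 were within 5 kb and 88 over 100 kb away. MIR10A lay 1457 bases from HOXB4 and MIR10B 973 bases from HOXD4, genes of body patterning. A host transcript not annotated in RefSeq would turn such a model into an intronic or exonic one.

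A group of 51 members had several exons, although a hairpin is a single stretch of the genome. Of these 30 bore MIR548 names, a large family derived from short transposable elements, which had 52 models in all. The 51 spanned 78 to 836530 bases with a median of 204105, and 35 spanned over 100 kb. MIR6130 on chromosome 9 was the longest, with 8 exons that add up to 106 bases. The 191 exons had a median of 16 bases, 42 were under 10 bases and the shortest had 3. Of their 140 introns 3 (2.14%) were GT-AG, in MIR3689A, MIR4426 and MIR3654, and 3 were GC-AG.

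Another annotation of the same build placed these genes elsewhere. In GENCODE, 0 of the 51 had their gene at the same place, 2 on the same chromosome, 38 on another chromosome and 11 had no entry under the name. Of 1579 single-exon members of at least 45 bases, 1053 were at the same place, 41 elsewhere on the chromosome, 1 on another chromosome and 484 had no entry. The 23 single-exon members under 45 bases were more like the multi-exon ones, with 1 at the same place, 2 elsewhere on the chromosome, 11 on another chromosome and 9 without an entry. For 35 multi-exon models the spliced sequence was compared with the single stretch of the GENCODE gene, end to end. The median edit distance, the fewest single-base changes, insertions and deletions that turn one into the other, was 17, and it was 5 or less for 10 models. It was 5 for MIR548AI, MIR548H2, MIR548F1, MIR548N and MIR3134. The distance includes any difference in length, as for MIR548T, with 53 bases against 74 in GENCODE and a distance of 21. For MIR548AC, with 85 bases against 88, it was 17. The spliced bases of MIR3689A and MIR941-2 were the same as those of the GENCODE gene. The positions, classes and hosts of the multi-exon models are therefore uncertain, and 2 single-exon members owe their class to one of them.

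For most other members the sequence at the listed place was that of the named microRNA. Of 1382 members with a RefSeq hairpin of the same name, 1319 (95.4%) had it letter for letter, in 44 one contained the other and 19 differed. By contrast, of the 10 multi-exon models among these, 2 were identical, 3 contained and 5 different.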

How the data were processed

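One merged transcript assembly for the whole series was analysed (6 libraries of EndoC-βH1, 3 with the INS shRNA induced and 3 negative controls). The values deposited by the authors are where each exon starts and ends, in bases, with text tags, and Cufflinks wrote them per the file's source column. The submitters' processing notes name TopHat2, Cufflinks and the build hg19, with no version. It holds 555595 exon lines and no abundance, so depth is unknown, the planned comparison of the groups was not made and columns of other samples number 0.

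Models were rebuilt with pysam 0.24.0, scipy 1.17.1 and numpy 2.4.6 under Python 3.11.15, and drawn with matplotlib 3.10.9. The class code was checked on artificial models of known position. A model was exonic where any of its exons shared at least 1 base with a same-strand exon of another gene name, intronic where it lay wholly in a same-strand intron, antisense where only a gene on the other strand overlapped it, and intergenic where no other gene did. A model over a same-strand gene that met neither of the first rules was counted apart. Edit distances came from edlib. Sequences were read from GRCh37 or from RefSeq (GRCh38.p14), and positions were compared with GENCODE release 44 on GRCh37. Named microRNAs are those of 7 lists, the 10 hosts with the most members, the 5 largest clusters, the 10 models nearest to filling an intron, the 5 nearest and 5 farthest from a splice site, with ties in order of place or name, and counts of 5 or fewer. All other microRNAs named were chosen after their values were seen. Members and lists were chosen with earlier results of these data known. Hairpins on chromosome 8 are not printed. One multi-exon model is not reported by name or sequence here.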

Additional observations from a re-analysis of the deposited data

How the results depend on the processing

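No paired analysis was possible because the assembly carries no value per library. For the same reason no replicate could be left out, and depth limits every statement on expression. Of 41 alternative settings 28 stayed within the interval or within 1.5 times of the count, and 13 moved. With coding transcripts only as hosts, the intronic share was 42.1%, the exonic 7.08%, the antisense 9.74% and the intergenic 39.9%. With clusters counted once, the intronic share was 49.7% and the intergenic 26.2%. Counting intron before exon gave 7.26% exonic, and leaving out microRNA genes as hosts gave 10.5% antisense. Models at the GENCODE position, a setting chosen after seeing the data, were 7.59% exonic and 35.2% intergenic. A gap of 50 kb put 28.4% of models in clusters. The share of hosts with a joined model was 8.98% when at least 2 were required and 34.8% among genes with 2 or more transcripts, against 5.22% and 28.0% of all gene names. These follow from what each setting counts. None reversed.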
